A study of Mus musculus with 6 samples.

Results

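The lysosomal cathepsins and the proton pump that acidifies the lysosome were examined as a group of 46 protein-coding genes, out of 54532 genes in the table. The members were chosen by symbol alone: the subunits of the vacuolar ATPase (V-ATPase, symbols Atp6v0 and Atp6v1) with its accessory proteins Atp6ap1 and Atp6ap2, the cathepsins (Cts followed by 1 letter), the lysosomal membrane proteins Lamp1 and Lamp2, and Cst3. Of the 46, 22 are V-ATPase subunits, 2 are accessory proteins, 18 are cathepsins, 2 are LAMP proteins and 1 is the cystatin Cst3. The remaining member, Atp6v1fnb, is a neighbour of Atp6v1f that carries its name. A mean of at least 0.5 FPKM over the 6 samples was required for a test, and 30 members passed it, against 12681 of all genes. FPKM are reads scaled by gene length and library size, so that levels of different genes can be set side by side.

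The V-ATPase is a rotary pump in which the V1 sector, outside the membrane, splits ATP and the V0 sector, within the membrane, carries protons into the lysosome. The acid lumen activates the cathepsins, proteases that break down proteins delivered to the lysosome or secreted around the cell, and cystatin C, the product of Cst3, is a secreted inhibitor of the cysteine cathepsins. In bone these proteins are best known from the osteoclast, which secretes acid and cathepsin K to dissolve bone, but every cell uses a V-ATPase and lysosomal cathepsins.

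MC3T3-E1, a single mouse pre-osteoblast line grown from calvaria, was kept in osteogenic medium (ascorbic acid, β-glycerophosphate and dexamethasone) for 3 days without an added drug (control, 3 samples) or with 0.2 mM metformin (3 samples). Dose and duration are those the paper gives, since the labels give neither, and its methods call the replicates biological. All samples shared the line and the osteogenic medium, and no group without osteogenic induction was analysed here. The recovered reads were 18399861 to 20652437 in the control samples and 19256672 to 22111790 with metformin, where 3 reads, a limit set by counting error alone, made up 1.4e-05% to 1.6e-05% of a library.

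Control replicate 1 stood apart from the other controls. Its Pearson correlations across genes with control replicates 2 and 3 were 0.96 and 0.952, while those 2 correlated at 0.988. Across the 30 tested members a Spearman correlation of -0.646 linked its deviation from the other controls to the GC content of the transcript (-0.668 over 12663 tested genes), as a description of genes that share a library. Values that moved by more than 1.5 times without that sample are therefore given with and without it. The labelled cell type was checked against osteoblast markers, and all 8 of Runx2, Sp7, Alpl, Col1a1, Col1a2, Ibsp, Spp1 and Bglap passed the limit on low values. Col1a1 (log2 fold change 0.93) and Col1a2 (0.57) rose and Ibsp (-1.60) and Spp1 (-1.50) fell with metformin. Of the 8 markers, 2 were called higher, 2 lower and 4 were not called (25% higher and 25% lower, against 13.2% and 9.28% of all tested genes). Without control replicate 1, 3 were called higher and 3 lower, where 23.4% and 20.4% of all tested genes were. The summed level of the 8 markers was 10004 to 11752 FPKM in the controls and 6793 to 7184 FPKM with metformin, with no overlap. This sum weighs each marker by its level and does not measure a shared direction. Its part in the decreases described below was not tested.

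Many lysosomal genes carry E-boxes of the CLEAR type near their start, the element bound by the transcription factors Tfeb, Tfe3 and Mitf. RefSeq promoter windows (GRCm38.p6, from 250 bases before to 50 bases after each start site) were found for 36 of the 46 members. The E-box core CACGTG, which reads the same on both strands, was in the windows of 9 members (25% of 36) and of 8.09% of the 27025 genes with a window. Its 8-base form TCACGTGA, which contains the core, was in 5 members (13.9%) and 1.12% of genes, and the 10-base form GTCACGTGAC was in 0 members and 0.370% of genes. The GC box GGGCGG, searched on both strands, was in 21 members (58.3%) and 38.2% of genes. A match is a description of the letters and not of binding. The members' windows had a median GC content of 56.2%, against 52.7% over all windows, and the 27025 genes include genes not tested here. The part of either in these shares was not tested. The stretches around the cores of the tested members are printed here because the core was in a larger share of the members' windows than of all genes' windows, although most members lack it. Each core is in capitals.
Lamp1 (chr8:13159090-13159161, plus strand): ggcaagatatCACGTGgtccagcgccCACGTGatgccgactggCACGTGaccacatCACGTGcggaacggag
Ctsa (chr2:164833751-164833793, plus strand): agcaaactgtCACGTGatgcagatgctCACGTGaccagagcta
Atp6v0b (chr4:117887332-117887375, minus strand): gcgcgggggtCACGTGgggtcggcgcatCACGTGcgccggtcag
Atp6v0d1 (chr8:105566052-105566077, minus strand): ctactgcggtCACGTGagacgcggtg
Atp6v0e (chr17:26676389-26676414, plus strand): gcgcgccgatCACGTGagcctctgtt
Atp6v1a (chr16:44139375-44139400, minus strand): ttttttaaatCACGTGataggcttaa
Ctsd (chr7:142387910-142387935, minus strand): gcccgcgtctCACGTGacccgttgag
Ctsl (chr13:64370741-64370766, minus strand): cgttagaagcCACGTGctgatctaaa
The Lamp1 window held 4 cores, the first at position -61 and the last at position -15 from the start site, which is position 1. The Ctsa and Atp6v0b windows each held 2, at -12 and 6 and at -36 and -18. The core of Atp6v0d1 began at -3, that of Atp6v0e at 4, that of Atp6v1a at -131, that of Ctsl at -236 and the printed core of Ctsd at -98, with another at -245. The ninth member with a core was Ctsf, which had 0 reads in every sample. Among the 8 tested members with a core, Ctsa was called lower in the comparison below and the other 7 were not called. Of all tested genes 9.28% were called lower and 13.2% higher.

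The 300-base windows of Cst3 and Ctsk are printed whole, as those of the 2 members with the largest decreases among the called members that have a window. Capitals mark the GC boxes.
Cst3 (chr2:148875463-148875762, minus strand): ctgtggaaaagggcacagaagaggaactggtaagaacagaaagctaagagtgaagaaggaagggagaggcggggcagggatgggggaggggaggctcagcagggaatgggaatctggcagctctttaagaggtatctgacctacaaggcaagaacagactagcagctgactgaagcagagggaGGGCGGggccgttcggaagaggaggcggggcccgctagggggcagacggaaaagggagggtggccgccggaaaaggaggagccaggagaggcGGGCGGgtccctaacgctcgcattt
Ctsk (chr3:95498960-95499259, plus strand): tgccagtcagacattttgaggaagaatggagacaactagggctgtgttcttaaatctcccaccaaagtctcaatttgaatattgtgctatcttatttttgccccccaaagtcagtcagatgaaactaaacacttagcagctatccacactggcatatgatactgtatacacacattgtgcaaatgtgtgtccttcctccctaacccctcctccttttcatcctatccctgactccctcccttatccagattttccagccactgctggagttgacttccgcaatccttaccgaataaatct
The Cst3 window had 2 GC boxes, 0 E-box cores and a GC content of 60.3%. The Ctsk window had 0 of either and a GC content of 43.7%. No window was matched for Atp6v0a2, Atp6v0d2, Atp6v1b2, Atp6v1c1, Atp6v1g1, Atp6v1h, Ctsb, Ctse, Ctsh or Ctsw.

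The comparison asked which parts of the acid and protease machinery differed between cells in osteogenic medium and cells that also received metformin. Cystatin C mRNA was 2.48-fold lower with metformin, cathepsin K was 1.68-fold lower, the V0 subunit d2 was 7.46-fold lower, the V1 subunit B2 was 1.48-fold lower and cathepsin A was 1.32-fold lower, each as a ratio of mean FPKM. The accessory protein Atp6ap1 was 1.33-fold higher. These 6 were the members called by limma-trend on log2(FPKM + 1) with Benjamini-Hochberg adjustment over all tested genes, 5 lower and 1 higher, and 24 tested members were not called. Among all tested genes 9.28% were called lower and 13.2% higher, and among the tested members 16.7% and 3.33%. The 3 metformin samples lay entirely below the 3 controls for 12 members and entirely above them for 2, where 20.5% and 23.6% of all tested genes did so. The median log2 fold change was -0.15 over the tested members and 0.0053 over all tested genes. In such bulk samples, fewer cells that express a gene and less RNA of it per cell cannot be told apart.

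**Figure D1:**
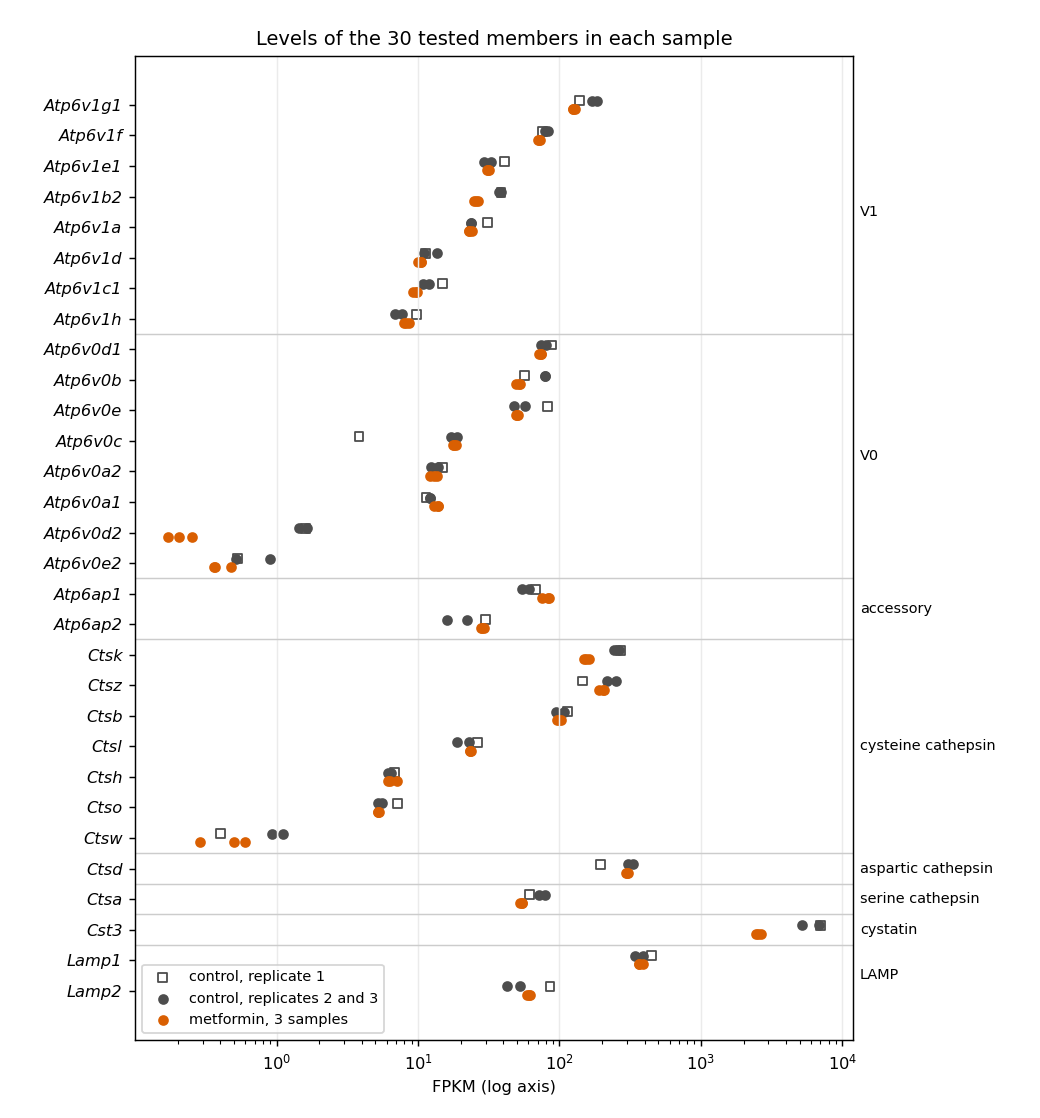
FPKM of each of the 30 tested members in each of the 6 samples, on a log axis and grouped by role. Open squares are control replicate 1, filled grey circles control replicates 2 and 3, and orange circles the 3 metformin samples. The orange points of Cst3, Ctsk, Atp6v1b2 and Atp6v0d2 lie clear of all 3 controls, and control replicate 1 stands far to the left for Atp6v0c.

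Leaving out control replicate 1, 10 members were called lower and 3 higher, against a background of 20.4% and 23.4% of all tested genes. The 6 members called with all samples were among them, and the 7 others were Atp6v0b, Atp6v1c1, Atp6v1f, Atp6v1g1 and Ctsw (lower) and Atp6ap2 and Lamp2 (higher). The median log2 fold change of the tested members was then -0.07. The calls of Cst3, Ctsk, Atp6v0d2 and Atp6v1b2 held in all 6 fits that each left out 1 sample. Once each library was corrected for GC content, 8 members were called lower and 1 higher (19.2% and 16.3% of all tested genes), and with a block for the replicate number 4 were lower and 0 higher (5.50% and 9.16%).

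**Figure D2:**
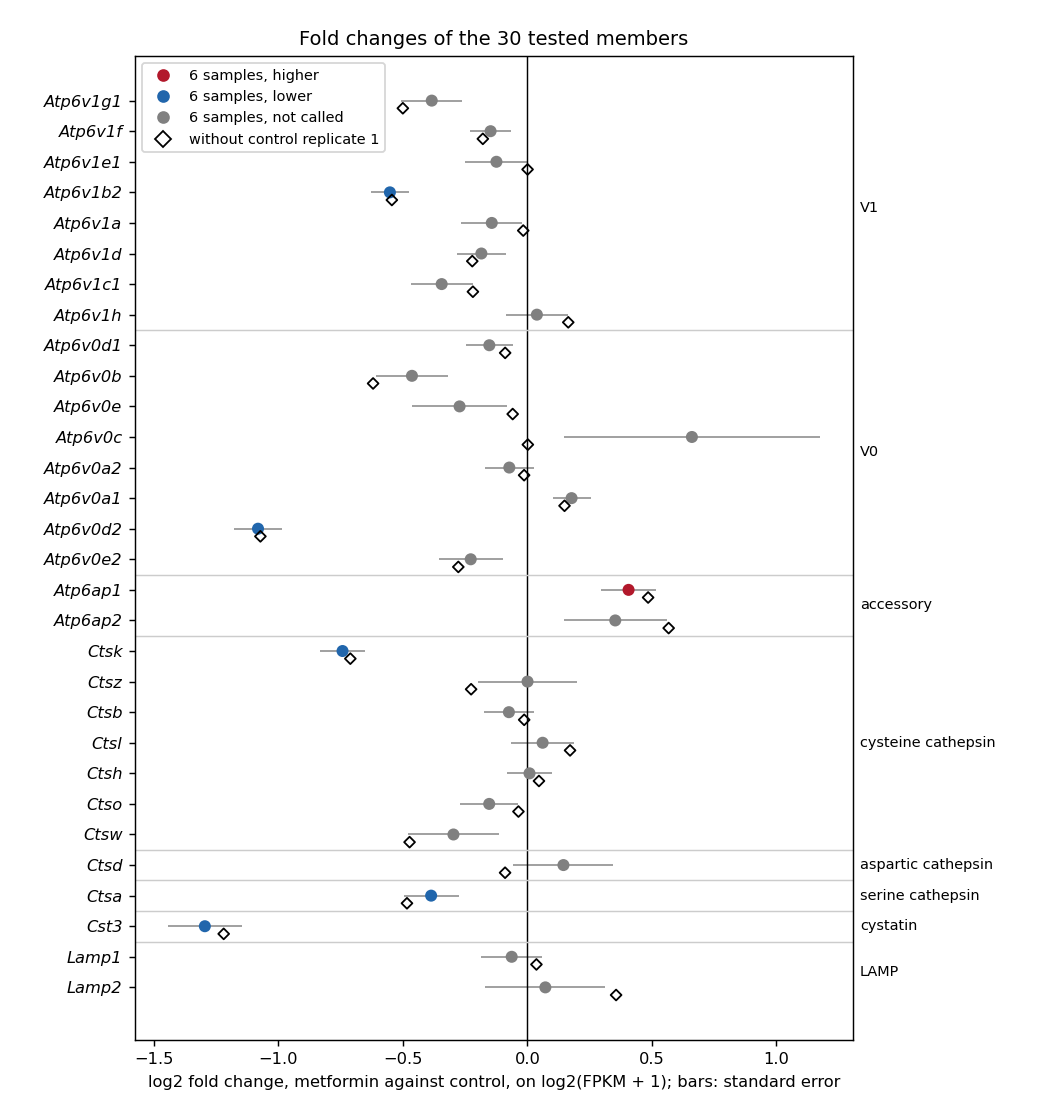
Log2 fold change on log2(FPKM + 1), metformin against control, of the 30 tested members with its standard error (bars). Filled circles use all 6 samples and are blue where called lower, red where called higher and grey where not called, and open diamonds leave out control replicate 1. The largest shift between circle and diamond is that of Atp6v0c, from 0.66 to 0.0018.

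In the V1 sector, 8 of 13 subunit genes were tested, and 1 was called lower and 0 higher. These are 12.5% and 0%, against 9.28% and 13.2% of all tested genes. Atp6v1b2 encodes the B2 subunit, the B isoform of most cells, which together with subunit A forms the ATP-splitting head. The gene (ENSMUSG00000006273, chr8:69088646-69113711, plus strand) measured 38.6, 37.5 and 38.4 FPKM in the control samples and 24.9, 26.5 and 25.8 FPKM with metformin. The controls were nearly level, and every metformin sample lay below them. The log2 fold change was -0.55 (SE 0.076, adjusted p = 0.0032 by limma-trend with Benjamini-Hochberg adjustment).

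The A subunit, Atp6v1a, measured 30.9, 23.6 and 23.5 FPKM in the controls and 22.7, 22.9 and 24.2 FPKM with metformin. Here the groups overlapped, and only control replicate 1 was clearly above the metformin samples (log2 fold change -0.14, SE 0.12, adjusted p = 0.451 by limma-trend with Benjamini-Hochberg adjustment). The ratio of Atp6v1b2 to Atp6v1a FPKM was 1.25 to 1.63 in the controls and 1.07 to 1.16 with metformin. Without control replicate 1 the log2 fold change of Atp6v1a was -0.02. Within this head the B2 mRNA thus lay lower relative to the A mRNA in all 3 metformin samples, a description with no test.

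Atp6v1g1, a stator subunit that holds the head in place, was the most abundant V1 subunit. It measured 139, 186 and 170 FPKM in the controls and 128, 124 and 124 FPKM with metformin. The metformin samples lay below every control, by the least below control replicate 1. This gave a log2 fold change of -0.38 (SE 0.12, adjusted p = 0.0672), and -0.50 without control replicate 1 (adjusted p = 0.0014, both by limma-trend with Benjamini-Hochberg adjustment).

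Atp6v1c1, the regulatory stator subunit C, had a log2 fold change of -0.34 (adjusted p = 0.0970 by limma-trend with Benjamini-Hochberg adjustment), and -0.22 without control replicate 1 (adjusted p = 0.0392). Atp6v1f, of the central rotor, had -0.15 (adjusted p = 0.245 by limma-trend with Benjamini-Hochberg adjustment), and -0.18 without that sample (adjusted p = 0.0390). Both lay below all controls in every metformin sample. Atp6v1d, also of the rotor, had -0.18 without a call, and its groups did not overlap. Atp6v1e1 (-0.12, and 0.00072 without control replicate 1), a stator subunit, and Atp6v1h (0.04, and 0.16 without it), a regulatory subunit, overlapped between the groups. The summed FPKM of the V1 subunits was 362 to 397 in the controls and 303 to 308 with metformin.

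In the V0 sector, 8 of 9 subunit genes were tested, and 1 was called lower and 0 higher. These are 12.5% and 0%, against 9.28% and 13.2% of all tested genes. Atp6v0d2 encodes an isoform of subunit d, which joins the rotating ring to the stalk, and is known for its abundance in osteoclasts. The gene (ENSMUSG00000028238, chr4:19876841-19922605, minus strand) measured 1.59, 1.44 and 1.65 FPKM in the controls and 0.204, 0.253 and 0.170 FPKM with metformin. These values rest on 79, 82 and 88 reads in the controls and on 11, 15 and 9 reads with metformin. The level was low in all samples, and the groups were far apart for their spread. The log2 fold change on log2(FPKM + 1) was -1.08 (SE 0.096, adjusted p = 0.0005 by limma-trend with Benjamini-Hochberg adjustment), which understates the change of so low a gene. On the recovered reads, limma's voom gave -2.85.

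The other d isoform, Atp6v0d1, is the one of most tissues, and it measured 88.5, 80.9 and 74.2 FPKM in the controls and 71.2, 73.6 and 73.5 FPKM with metformin. Its metformin samples lay just below the lowest control (log2 fold change -0.15, SE 0.095, adjusted p = 0.296 by limma-trend with Benjamini-Hochberg adjustment, and -0.09 without control replicate 1). Atp6v0d2 made up 1.75 to 2.17% of the summed FPKM of the d isoforms in the controls and 0.231 to 0.343% with metformin. Nearly all d subunit mRNA was therefore Atp6v0d1 in both groups.

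The proton-carrying ring is built from the proteolipids Atp6v0c and Atp6v0b. Atp6v0b measured 56.9, 78.8 and 79.3 FPKM in the controls and 49.0, 53.0 and 51.4 FPKM with metformin, and every metformin sample was below every control. Its log2 fold change was -0.46 (SE 0.14, adjusted p = 0.0620), and -0.62 without control replicate 1 (adjusted p = 0.00038, both by limma-trend with Benjamini-Hochberg adjustment). Atp6v0c measured 3.82, 17.2 and 18.7 FPKM in the controls and 17.9, 17.6 and 18.5 FPKM with metformin. Control replicate 1 alone was low, with 236 reads against 1222 and 1247 in the other controls, and the other 5 samples lay together.

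The log2 fold change of Atp6v0c was 0.66 (SE 0.52, adjusted p = 0.407) with all samples and 0.0018 (adjusted p = 0.983, both by limma-trend with Benjamini-Hochberg adjustment) without control replicate 1. Its transcript is 99.7% identical over 387 bases to the pseudogene Atp6v0c-ps2, so reads of both could be split by the counting. Atp6v0c-ps2 was listed at 1.88, 2.87 and 3.72 FPKM in the controls and 2.17, 2.27 and 1.88 FPKM with metformin. It was thus the lowest of the controls in control replicate 1 too, and its part in the value of Atp6v0c was not tested. Of the a subunits, which anchor V0 and line the proton path, Atp6v0a1 had a log2 fold change of 0.18 with its metformin samples above every control, and Atp6v0a2 had -0.07 with overlap (-0.01 without control replicate 1). Neither was called. Atp6v0e (-0.27) and Atp6v0e2 (-0.23), small subunits of the membrane sector, were not called either. Atp6v0e was at 81.8 FPKM in control replicate 1 against 57.2 and 47.5 FPKM in the other controls, and its value was -0.06 without that sample. The summed FPKM of the V0 members, which leaves out the a3 isoform Tcirg1, was 248 to 261 in the controls and 214 to 223 with metformin. This sum is a description with no test.

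The a3 isoform carries the symbol Tcirg1, outside the symbol rule, and is the a subunit of the osteoclast's acid-secreting membrane. It measured 16.3, 25.6 and 29.4 FPKM in the controls and 20.9, 19.6 and 21.8 FPKM with metformin. Control replicate 1 lay below the metformin samples and the other controls above them (log2 fold change -0.15, adjusted p = 0.651, and -0.39 without control replicate 1, adjusted p = 0.0091, both by limma-trend with Benjamini-Hochberg adjustment). Tcirg1 made up 38.0 to 52.8% of the summed a subunit FPKM in the controls and 41.3 to 45.2% with metformin. Rnasek, a small V-ATPase-associated protein outside the rule, had a log2 fold change of 0.0044 and was not called. It had 1 read in control replicate 1 against 20 and 21 in the other controls, and -0.33 without that sample (adjusted p = 0.0584 by limma-trend with Benjamini-Hochberg adjustment).

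**Figure D3:**
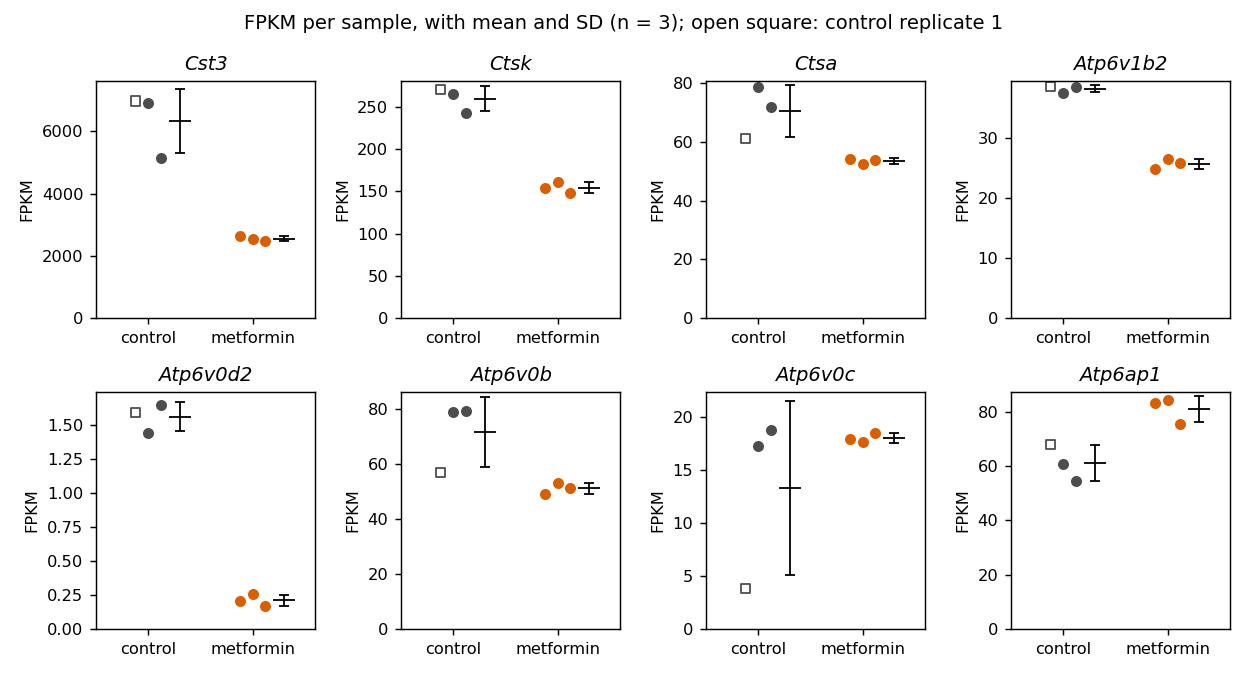
FPKM per sample of 8 members, with the mean and SD of each group (bars, n = 3) and axes that start at 0. The open square is control replicate 1. Groups are separate for every panel but Atp6v0c, where control replicate 1 at 3.82 FPKM lies below all other samples.

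Both accessory proteins had positive log2 fold changes. Atp6ap1 encodes Ac45, which helps to assemble the pump and guide it through the secretory pathway. The gene (ENSMUSG00000019087, chrX:74297097-74304721, plus strand) measured 67.8, 60.5 and 54.5 FPKM in the controls and 83.0, 84.3 and 75.4 FPKM with metformin. Each metformin sample was above each control, and the log2 fold change was 0.41 (SE 0.11, adjusted p = 0.0391 by limma-trend with Benjamini-Hochberg adjustment). The call held without control replicate 1 (adjusted p = 0.0033) and was lost without each of the other 5 samples, with adjusted p-values up to 0.159, and in the fit blocked by replicate number (0.0788).

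Atp6ap2, the (pro)renin receptor, is also an accessory protein of the pump. It measured 30.1, 22.2 and 16.1 FPKM in the controls and 28.1, 28.0 and 29.4 FPKM with metformin. Control replicate 1 was slightly above the metformin samples and the other controls were below them. Its log2 fold change was 0.35 (SE 0.21, adjusted p = 0.270), and 0.57 without control replicate 1 (adjusted p = 0.0122, both by limma-trend with Benjamini-Hochberg adjustment).

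Among the cathepsins, 9 of 18 were tested, 2 were called lower and 0 higher. These are 22.2% and 0%, against 9.28% and 13.2% of all tested genes. Ctsk encodes the collagen-cleaving cysteine protease cathepsin K, and it was the most abundant tested cysteine cathepsin in the controls by mean FPKM. The gene (ENSMUSG00000028111, chr3:95499256-95509362, plus strand) measured 271, 265 and 243 FPKM in the controls and 154, 162 and 149 FPKM with metformin. All 3 metformin samples were well below the lowest control. The log2 fold change was -0.74 (SE 0.091, adjusted p = 0.0021 by limma-trend with Benjamini-Hochberg adjustment).

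The neighbouring gene on chromosome 3, Ctss, a cathepsin of antigen-presenting cells, had at most 1 read in any sample. Markers of osteoclasts, the cells best known for cathepsin K and Atp6v0d2, were at or near 0: all 7 (Acp5, Calcr, Oscar, Dcstamp, Ocstamp, Tnfrsf11a and Mmp9) were under 0.5 FPKM in every sample, and Acp5, Calcr and Tnfrsf11a were at 0. Their summed level was 0.0746 to 0.196 FPKM in the controls and 0.290 to 0.501 FPKM with metformin. Of 9 macrophage markers, 6 were under 0.5 FPKM in every sample and Itgam was at 0. Their sum, 24.6 to 36.8 FPKM in the controls and 34.5 to 38.4 FPKM with metformin, rested mostly on Lyz2 (log2 fold change 0.61, not called, and 0.83 with a call without control replicate 1) and Cd14 (-0.38, called lower).

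Ctsa encodes a serine carboxypeptidase that also protects neuraminidase and β-galactosidase in the lysosome. The gene (ENSMUSG00000017760, chr2:164832873-164841032, plus strand) measured 61.3, 78.7 and 71.9 FPKM in the controls and 54.3, 52.3 and 53.9 FPKM with metformin. The metformin samples were close together below every control, with control replicate 1 the nearest. Cathepsin A mRNA thus had a log2 fold change of -0.39 (SE 0.11, adjusted p = 0.0481 by limma-trend with Benjamini-Hochberg adjustment). The call held without control replicate 1 (adjusted p = 0.0013) and was lost without each of the other 5 samples, with adjusted p-values up to 0.173, and in the fit blocked by replicate number (0.116).

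Reads of Ctsa could also be shared with a neighbour on the opposite strand, Pltp, whose transcript matches it at 99.7% over 316 bases, because the counting is not stated to use strand. Pltp had a log2 fold change of 0.53 and was not called (adjusted p = 0.0569 by limma-trend with Benjamini-Hochberg adjustment). Another gene on the opposite strand, Neurl2, matches Ctsa at 100% over 297 bases. It had a log2 fold change of -0.23 and was not called (adjusted p = 0.248 by the same test). The part of Pltp or Neurl2 in the value of Ctsa was not tested.

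The other abundant cathepsins were not called. Ctsd, the aspartic protease of the lysosome, measured 195, 333 and 304 FPKM in the controls and 299, 304 and 294 FPKM with metformin. Ctsz, a carboxypeptidase, measured 145, 249 and 218 FPKM in the controls and 202, 205 and 191 FPKM with metformin. For both, control replicate 1 was the lowest of the 6 samples and the groups overlapped. The log2 fold change was 0.14 for Ctsd and 0.00053 for Ctsz, and without that sample -0.09 and -0.23.

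Ctsb, an abundant endopeptidase, measured 94.3 to 114 FPKM in the controls and 96.0 to 103 FPKM with metformin, with a log2 fold change of -0.07 (SE 0.10), and -0.01 without control replicate 1. It shares 774 bases with Fdft1 on the opposite strand, which rose with metformin (log2 fold change 1.13). Ctsl (0.06), an endopeptidase, Ctsh (0.0085), an aminopeptidase, and Ctso (-0.15) overlapped between the groups. Without control replicate 1 these values were 0.17, 0.05 and -0.04. Ctsw, best known from cytotoxic lymphocytes, was low at 0.400, 0.929 and 1.11 FPKM in the controls and 0.286 to 0.596 FPKM with metformin. The groups overlapped. It was called lower without control replicate 1 (log2 fold change -0.47, adjusted p = 0.0292 by limma-trend with Benjamini-Hochberg adjustment) and not with all samples (-0.30).

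The summed FPKM of the cysteine cathepsins was 571 to 657 in the controls and 471 to 506 with metformin. Ctsk made up 40.3 to 47.4% of that sum in the controls and 31.3 to 31.9% with metformin. The sum over all cathepsins, 827 to 1070 and 819 to 862 FPKM, overlapped between the groups. These sums and shares are descriptions with no test.

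Cst3 was by far the most abundant member and ranked between 4 and 7 among all genes of the table in every sample. The gene (ENSMUSG00000027447, chr2:148871722-148875692, minus strand) measured 6969, 6891 and 5145 FPKM in the controls and 2652, 2550 and 2470 FPKM with metformin. The lowest control, replicate 3, was well above the highest metformin sample. Cst3 had a log2 fold change of -1.30 (SE 0.15, adjusted p = 0.0015 by limma-trend with Benjamini-Hochberg adjustment). The call was lost when no limit on low values was set (adjusted p = 0.225), and it held under the other alternatives.

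Cst3 made up 1.67 to 2.05% of the summed FPKM of a control sample and 0.840 to 0.887% with metformin. The ratio of Cst3 to the summed cysteine cathepsins, an inhibitor against its targets at the mRNA level, was 8.78 to 12.2 in the controls and 5.04 to 5.40 with metformin. Both terms of this ratio were lower with metformin, and the inhibitor by the larger factor. Of the 7 tested cysteine cathepsins only Ctsk was called lower (14.3%) and 6 were not called. Among all tested genes 9.28% were called lower and 13.2% higher. The summed FPKM of all genes was also lower with metformin, at 293994 to 298930 against 307357 to 341194 in the controls.

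**Figure D4:**
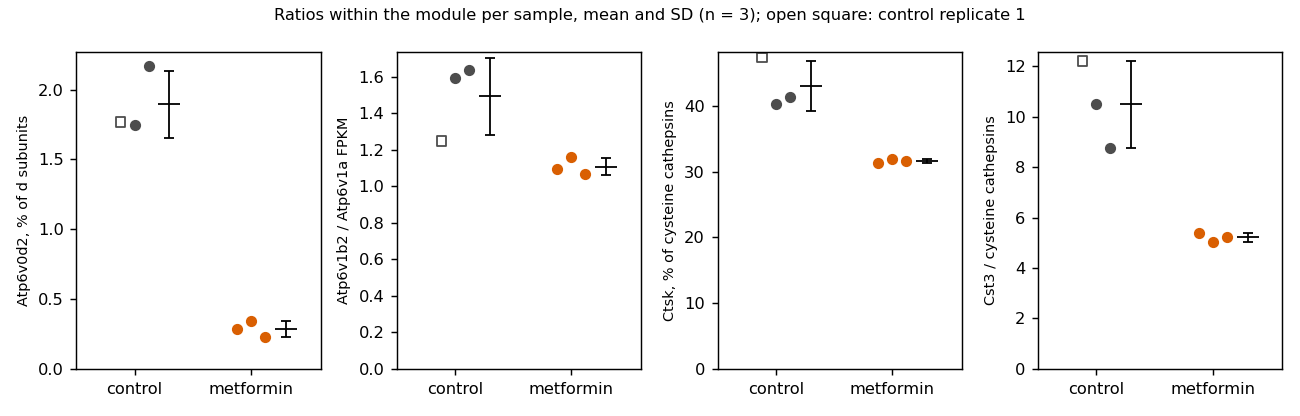
Per-sample ratios of FPKM within the group of genes: Atp6v0d2 as a percentage of the d subunits, Atp6v1b2 over Atp6v1a, Ctsk as a percentage of the cysteine cathepsins, and Cst3 over the summed cysteine cathepsins. Points are samples (open square, control replicate 1) and bars the mean and SD (n = 3), and in all 4 panels the metformin samples lie below the controls.

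Lamp1 and Lamp2, the most abundant glycoproteins of the lysosomal membrane, were not called. Lamp1 measured 446, 386 and 341 FPKM in the controls and 363, 387 and 367 FPKM with metformin, and the groups overlapped (log2 fold change -0.06, SE 0.12, and 0.04 without control replicate 1). Lamp2 measured 85.7, 52.2 and 42.4 FPKM in the controls and 58.9, 61.5 and 61.2 FPKM with metformin. Control replicate 1 was the highest sample of Lamp2 and the other controls the lowest. Its log2 fold change was 0.07 with all samples and 0.36 without control replicate 1 (adjusted p = 0.861 and 0.0215, by limma-trend with Benjamini-Hochberg adjustment).

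The 16 members that were not tested were low or at 0. No read was recovered in any sample for 9 of them: Atp6v1e2 and Atp6v1g3, isoforms of V1 subunits, and Ctsc, Ctsf, Ctsg, Ctsj, Ctsm, Ctsq and Ctsr. Ctsj, Ctsm, Ctsq and Ctsr belong to the placental cathepsins clustered on chromosome 13. The other 7 had reads: Atp6v0a4, a kidney isoform, had 33 to 46 reads per sample, Atp6v1g2 had 10 to 28, Atp6v1b1 had 0 to 10, Atp6v1fnb had 0 to 3, and Atp6v1c2, Ctse and Ctss had at most 1. In these cells the measured pump mRNA therefore came mostly from the widely expressed isoforms and Tcirg1, with a little Atp6v0d2.

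Beyond the members, 6 lists of lysosomal genes were followed: V-ATPase assembly factors, other hydrolases, membrane proteins, sorting receptors, the MiT/TFE factors with the mTORC1 docking complex, and other cathepsin inhibitors. Of the 94 genes tested, 4 were called higher and 16 lower, which is 4.26% and 17.0%, against 13.2% and 9.28% of all tested genes. Without control replicate 1 these counts were 16 and 32, where the shares of all tested genes were 23.4% and 20.4%. Of the 20 calls, 7 held in all 6 fits that each left out 1 sample, and these were Gla, Arsb, Galns, Ctns, Mitf, Fnip2 and Ctla2a. The fewest calls were kept without metformin replicate 1 (7 of 20), and 10, 9, 15 and 16 were kept without metformin replicates 2 and 3 and control replicates 2 and 3.

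Of 36 other hydrolases, 3 rose and 3 fell (8.33% each, against 13.2% higher and 9.28% lower of all tested genes). Arsb and Galns, sulfatases that break down glycosaminoglycans, had log2 fold changes of 0.81 (SE 0.11) and 0.61 (SE 0.097), and Man2b1, an α-mannosidase, had 0.48. Among those that fell, Gla, α-galactosidase A, had -0.73 (SE 0.093) and the lysosomal phospholipase Pla2g15 had -0.62. The median over the 36 was 0.08, with 23 positive and 13 negative values. Without control replicate 1, 9 were called higher and 5 lower, where 23.4% and 20.4% of all tested genes were. A shared direction was not tested.

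Of 20 lysosomal membrane proteins, 5 fell and 0 rose (25% and 0%, against 9.28% lower and 13.2% higher of all tested genes). The median log2 fold change was -0.23, and 0.0053 over all tested genes. Of the 5 calls only that of Ctns held in all 6 fits that each left out 1 sample. Ctns, the cystine exporter, measured 15.0, 14.6 and 13.7 FPKM in the controls and 7.46, 7.17 and 7.80 FPKM with metformin, and all controls were far above the metformin samples (log2 fold change -0.86, SE 0.079, adjusted p = 0.00058 by limma-trend with Benjamini-Hochberg adjustment). The others were Laptm4b (-0.71), the sialic acid exporter Slc17a5 (-0.52), Cd68 (-0.49), which is also a macrophage marker, and the ion channel Tmem175 (-0.39).

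Of 14 MiT/TFE and docking genes, 4 fell and 0 rose (28.6% and 0%, against 9.28% lower and 13.2% higher of all tested genes). The calls of Mitf and Fnip2 held in all 6 fits that each left out 1 sample, and the others did not. Mitf, a transcription factor that binds E-boxes, measured 12.2, 8.56 and 8.22 FPKM in the controls and 3.68, 3.80 and 4.13 FPKM with metformin. The metformin samples were below every control, and control replicate 1 was the highest. Its log2 fold change was -1.11 (SE 0.15, adjusted p = 0.0029 by limma-trend with Benjamini-Hochberg adjustment). Its relatives Tfeb (-0.02, and -0.19 without control replicate 1) and Tfe3 (0.18, and 0.07 without it) were not called in either fit. Fnip2, a partner of folliculin, had -0.52, the GTPase Rragd had -0.48 and the Ragulator subunit Lamtor5 had -0.31.

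The remaining lists were small, and among all tested genes 9.28% were called lower and 13.2% higher. Of 12 V-ATPase assembly genes 1 fell, Ncoa7 (-0.47), a protein that binds the pump. Of 9 sorting genes 1 rose, Sort1 (0.46), a receptor that carries hydrolases from the Golgi, and 1 fell, the adaptor Gga3 (-0.41). Of 3 tested cathepsin inhibitors besides Cst3, 2 fell. Ctla2a, a cysteine protease inhibitor with near-identical copies in the genome, had -2.45 and cystatin E/M (Cst6) had -0.79, while the intracellular cystatin Cstb (0.08, and 0.0013 without control replicate 1) was not called.

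**Figure D5:**
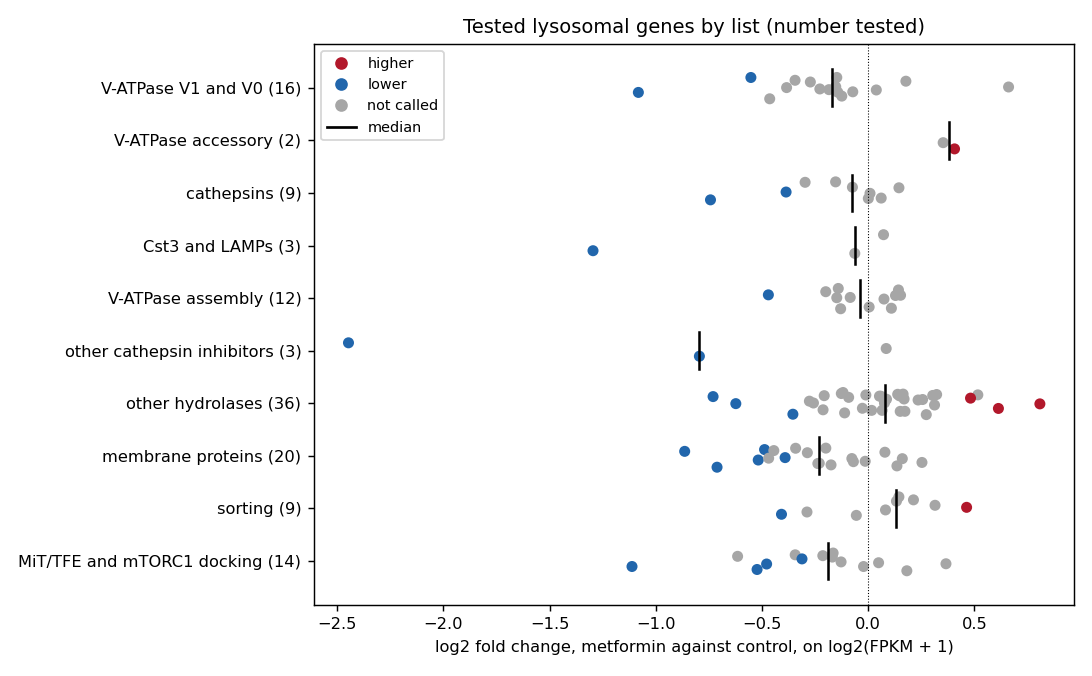
Log2 fold changes on log2(FPKM + 1) of the tested members and of the tested genes of 6 further lysosomal lists, 1 point per gene, with the number tested in brackets. Red points were called higher, blue points lower and grey points not called, and the black line is the median. The membrane protein list has 5 blue points and no red one, and the hydrolase list has 3 of each. Among all tested genes 9.28% were called lower and 13.2% higher.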

How the data were processed

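The submitters' notes name Bowtie 0.12.2 and the builds mm8 and mm9, and the libraries were made from total RNA with a TruSeq kit. The authors deposited 1 table with a value per gene and sample and did not name its unit. The deposited values were taken as FPKM (reads divided by the authors by gene length and library size). Each value times the gene length is a whole multiple of 1 step per sample (within 0.01 reads), which also gave the recovered reads. Other values scaled by gene length would share this property. The library size implied by the step was 1.83e+07 to 2.18e+07, near the recovered reads but not equal to them. In control replicate 3 it was 1.97e+07 against 18792236 recovered reads, and the cause was not tested. The authors tested their data with DESeq2. Here a test suited to FPKM was used, with voom on the recovered reads as its count-based alternative. GENCODE M21 (GRCm38) lists 54409 of the gene identifiers, and 53499 of them at identical coordinates (42 of the 46 members). Coordinates are those of the table. The builds named in the notes are not GRCm38, so the build behind the deposited values is unclear.

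FPKM were compared with limma 3.58.1 (R 4.3.3), with an intensity trend, after log2(FPKM + 1) transformation. Only the 12681 genes averaging at least 0.5 FPKM entered, and Benjamini-Hochberg adjustment ran over all of them (threshold 0.05). Members and lists were chosen with earlier results of these data known. All members could be named, and from each list the called genes with the largest changes, at most 6 each, with Tcirg1 and Rnasek. A few further genes (Tfeb, Tfe3, Cstb, Lyz2, Cd14, Pltp, Neurl2 and Fdft1) were named after their values were seen, and 1 called list gene is not reported by name here. Transcripts were compared with BLAST+ 2.17.0 (95% identity over 200 bases). Fits were tested on simulated data. As alternatives, the pseudocount was set to 0.1, libraries were scaled by total reads, the filter was dropped or set to 10 reads in every sample, and fits were made with the replicate block, with voom on recovered reads, with a GC correction (a spline with 5 degrees of freedom) and without each sample. Same-numbered samples did not deviate together (correlations -0.053, 0.00027 and -0.055), so the block is an alternative.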

Additional observations from a re-analysis of the deposited data

How the results depend on the processing

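The calls of Ctsk and Atp6v1b2 held under every alternative, and that of Cst3 under all but the fit with no filter on low values. Atp6v0d2 kept its call wherever it was tested, and it was not tested with at least 10 reads in every sample, since its lowest sample has 9. With all samples 1 member was called higher and 5 lower. Without a filter, where 37 members were tested, these counts were 0 and 3. Over all genes the fit without a filter called 1432 higher and 884 lower of 24801, and the main fit 1670 and 1177 of 12681. With the GC correction 8 members were lower (19.2% of all tested genes were), and leaving out each sample gave 0 to 3 members higher and 4 to 10 lower. With the replicate number as a block 0 members were higher and 4 lower, since Atp6ap1 and Ctsa lost their calls. The block left 698 of all genes lower and 9 of the list genes lower, and samples of the same number did not deviate together. All genes called lower were 2433 with the GC correction and 1888 with the block and the GC correction. List genes called lower were 30 with the GC correction. Leaving out each sample gave 938 to 2969 higher and 495 to 2590 lower genes, and 2 to 16 higher and 5 to 32 lower list genes. The causes were not tested.

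Members near 0 changed sign. Ctsh was -0.016 with scaling by total reads and -0.045 with the GC correction, with or without the block. Ctsz was -0.028 with scaling by total reads, -0.00027 with voom and -0.068 with the GC correction, with or without the block. Leaving out each sample gave -0.23 to 0.00072 for Atp6v1e1, -0.060 to 0.16 for Atp6v1h, -0.090 to 0.30 for Ctsd, -0.048 to 0.046 for Ctsh, -0.063 to 0.17 for Ctsl, -0.23 to 0.16 for Ctsz, -0.16 to 0.036 for Lamp1 and -0.14 to 0.36 for Lamp2. Of the member values under alternatives, 372 kept their direction and their side of the threshold, 15 lost a call, 13 gained one and 18 changed sign. Depth limits Atp6v0d2, with 9 to 15 reads with metformin. The 16 untested members fell under the limit on mean FPKM.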
